A study of Homo sapiens with 17 samples.

Results

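The transcriptome of IMR-90 fibroblasts 4 weeks after a pulse of etoposide was compared with that of untreated fibroblasts. The comparison took in every library whose title carries day 28 (week 4, n = 6) or day 0 (week 0, n = 5), which is 11 of the 17 libraries of the series, and every named gene. IMR-90 is a diploid fibroblast line from human fetal lung. The week 4 cells had been exposed to 20 µM etoposide for 48 h and were then kept without the drug until harvest, while the week 0 cells were untreated, and all cells were grown in the same serum-supplemented medium. Both groups come from the same line, so the data hold a single donor genotype. No untreated culture was collected at week 4, and the effects of the drug and of 4 weeks in culture cannot be told apart. The labels do not say whether the libraries of a group were separate cultures, so p-values here reflect only how much libraries of a group varied, part or all of which may be technical. In bulk RNA, fewer cells of a type and less RNA per cell cannot be told apart.

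Etoposide traps topoisomerase II on DNA after it has cut both strands, and the breaks that follow activate the ATM kinase and the transcription factor p53. Cells with lasting damage can leave the cell cycle for good, a state called senescence, which is held by the kinase inhibitor p21, by p16 and by the retinoblastoma protein family. Senescent fibroblasts stay metabolically active, enlarge, and secrete cytokines, proteases, growth factor binding proteins and matrix.

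The libraries held 80.34 to 102.8 M counts over named genes, and 16891 genes, of 41040 with a name, passed the filter on low counts and entered the test. All 12 fibroblast markers had counts, and together they reached 36500 ± 2852 CPM at week 0 (here as a part of the whole library, mean ± SD) and 56745 ± 1211 CPM at week 4. Most of that sum was COL1A1 and COL1A2, and 4 of the 12 had a lower mean at week 4, namely DCN (1598 and 1236 CPM), VIM (1945 and 1638 CPM), PDGFRA (391 and 277 CPM) and S100A4 (5.02 and 2.47 CPM). In the test of single genes described below DCN and VIM were not called, though both were called lower under some alternatives. In that test the fall of S100A4 was lost without week 0 replicates 1 and 4 (adjusted p = 0.285). Of 6 marker lists, 3 differed in an exact two-sided permutation test (adjusted p = 0.00866 for each). The other sum that rose was that of 10 epithelial markers, from 73.0 ± 2.57 to 208 ± 6.28 CPM, carried by the keratins KRT18, KRT8 and KRT19. CLDN4 (5.22 and 4.49 CPM) and EPCAM (0.344 and 0.176 CPM) had lower means at week 4. CDH1, KRT5, SFTPC and SCGB1A1 stayed under 0.1 CPM in every library and NKX2-1 had no count. The sum of 8 endothelial markers fell from 96.8 ± 7.58 to 67.7 ± 8.89 CPM, nearly all of it TEK (91.2 and 65.8 CPM) and KDR (4.75 and 0.399 CPM). The other 6 markers had higher means at week 4, with VWF at 0.776 and 1.19 CPM, PECAM1 at 0.00226 and 0.135 CPM, ERG at 0 and 0.0728 CPM, and CDH5, CLDN5 and EMCN under 0.1 CPM. Smooth muscle and pericyte markers summed to 648 ± 51.6 and 684 ± 11.3 CPM (adjusted p = 0.26). Leukocyte markers summed to 0.360 ± 0.0925 and 0.595 ± 0.200 CPM (adjusted p = 0.065), with CD3E at 0. The part of these cell types in the results was not tested. Week 0 replicates 1 and 4 stood apart from week 0 replicates 3, 5 and 6 on the second principal component (5.62% of the variance, against 68.7% on the first, which separated the groups), and ribosomal protein genes took up to 6.38% of their counts, against a lowest share of 3.48% over the 11 libraries. List counts that moved by 1.5 times or more without those libraries are given both ways.

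At week 4, 5722 genes were higher and 5692 lower than at week 0 at an adjusted p under 0.05 (edgeR's quasi-likelihood test, Benjamini-Hochberg adjustment over all tested genes), which is 33.9% and 33.7% of those tested, or 67.6% in all. With so large a share called, a list is described below against these percentages. The lists were chosen with earlier results of these data known, so their shares are descriptions and not tests. Members under 1 CPM at week 0 could enter the test through their week 4 libraries alone, which favours rises in lists with many of them. A stricter test, which asks whether a change is larger than 2-fold, called 1270 genes higher (7.52%) and 721 lower (4.27%). The libraries of the groups did not overlap for 49% of the tested genes, and the median log2 fold change over all tested genes was 0.00213. The scaling of libraries sets this centre, so the median and the even split of rises and falls are not findings about the cells. The median difference in mean log2 CPM was -0.184 without scaling and 0.073 with upper-quartile scaling, which called 6373 genes higher and 5028 lower. Levels of single genes below are CPM on library sizes scaled by the trimmed mean of M-values, and log2 fold changes are week 4 minus week 0.

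**Figure D1:**
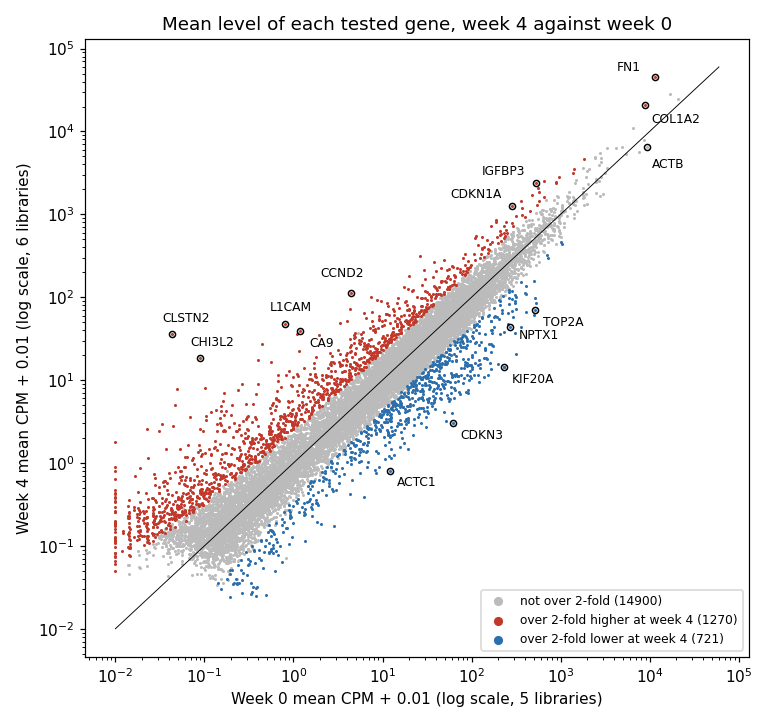
Mean level of each tested gene at week 0 (horizontal axis) and week 4 (vertical axis), in CPM + 0.01 on log scales, with genes past the 2-fold test in red (1270 higher) and blue (721 lower) and the others in grey. The largest relative rises, such as those of CLSTN2 and CHI3L2, started from levels near 0 at week 0, while FN1 and COL1A2 rose among the most abundant genes.

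The 15 genes with the largest called rises, among those with a mean of at least 5 CPM at week 4 and no overlap, were of varied kinds. CLSTN2, a calsyntenin of synaptic membranes, led them, followed by CHI3L2, a chitinase-like secreted protein, the chloride channel regulator family member CLCA2, the basement membrane protein FRAS1 and the patched-domain protein PTCHD4. The list went on with the adhesion molecule L1CAM, TMEM178B, the Notch ligand JAG2, the prolyl hydroxylase EGLN3, ARFGEF3, the lipid phosphatase INPP5D, the carbonic anhydrase CA9, ITIH5, the adhesion molecule NFASC and the cyclin CCND2. CLCA2 went from 0.0392 ± 0.0371 to 7.73 ± 0.824 CPM, and FRAS1 from 0.0921 ± 0.0492 to 8.09 ± 0.273 CPM. JAG2 rose from 0.154 ± 0.0639 to 7.05 ± 0.630 CPM, a 45.7-fold change (adjusted p = 2.5e-17). INPP5D, best known from blood cells, rose from 0.227 ± 0.0527 to 7.65 ± 0.896 CPM. The leukocyte marker sum was under 1 CPM in every library, and the part of blood cells in this rise was not tested. Of the 15 largest falls, most were cell division genes. The exceptions included ACTC1, the cardiac muscle actin, which fell from 12 ± 1.07 to 0.799 ± 0.129 CPM, and CDC20P1, a pseudogene of CDC20 whose reads may not be separable from those of its parent.

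Matrix transcripts took a larger share of the counts at week 4. FN1, which encodes fibronectin, went from 9952, 12921, 9962, 13303 and 11961 CPM in week 0 replicates 1, 3, 4, 5 and 6 to between 41515 and 48531 CPM (median 44910) at week 4. The libraries did not overlap, and the change was 3.87-fold (log2 1.95 ± 0.08 SE, adjusted p = 8.5e-16). FN1 alone took 1.27 ± 0.171% of all counts at week 0 and 4.29 ± 0.224% at week 4. Together with the 42 listed collagen chains it took 6.79 ± 0.719% and 12.8 ± 0.123%. The largest losses in CPM among genes that were called were those of the cytoskeletal actins, ACTB from 9313 ± 573 to 6496 ± 136 CPM and ACTG1 from 7536 ± 283 to 5606 ± 278 CPM, and of PTMA, HSPA8, HSP90AA1, TPM4, LGALS1, TMSB10 and the splicing factor HNRNPA2B1. EEF1A1, the translation elongation factor, had the fifth largest loss in mean CPM but was not called (8629 ± 2532 against 7953 ± 473 CPM, adjusted p = 0.39). Without week 0 replicates 1 and 4 it was called higher at week 4 (log2 0.22, adjusted p = 0.000766). TMSB10, at 2976 ± 1147 CPM in week 0, overlapped between the groups, and its log2 change of -0.75 was -0.30 without those libraries.

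**Figure D2:**
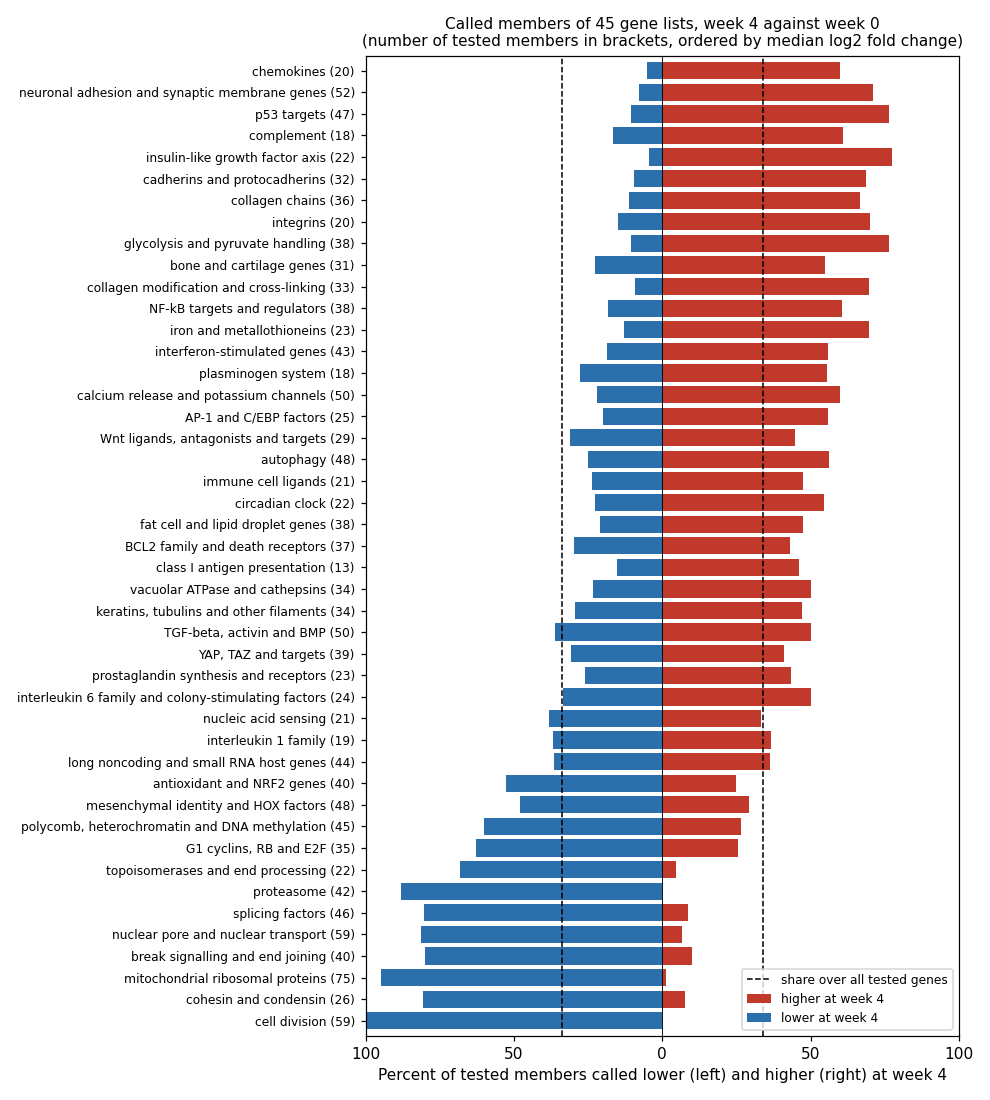
Percent of the tested members of each of 45 gene lists called lower (blue, left) and higher (red, right) at week 4, with the number of tested members in brackets and dashed lines at the shares over all tested genes (33.7% lower, 33.9% higher). Cell division, cohesin and condensin, and mitochondrial ribosomal proteins had the lowest medians, and chemokines and neuronal adhesion genes, many of them scarce at week 0, the highest.

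Of the isoforms of topoisomerase II, the enzyme that etoposide traps, TOP2A was lower and TOP2B was not called. TOP2A, the isoform of topoisomerase II made by dividing cells, stood at 466, 514, 555, 511 and 529 CPM in week 0 replicates 1, 3, 4, 5 and 6 and at 56.5 to 79.7 CPM (median 70.2) at week 4. The groups were far apart, with a 7.45-fold fall (log2 -2.90 ± 0.08 SE, adjusted p = 2.9e-18). TOP2B, the isoform that non-dividing cells also make, stood at 133, 165, 149, 171 and 187 CPM at week 0 and at 163 to 176 CPM (median 166) at week 4. Its groups overlapped and it was not called (adjusted p = 0.46), although with a correction for gene length it was called lower (log2 -0.22, adjusted p = 5.91e-05). Per kilobase of the deposited gene length, TOP2A was at 80.8 and TOP2B at 8.65 CPM at week 0, and at 10.9 and 8.97 CPM at week 4. Of 22 tested topoisomerases and end-processing genes, 15 fell and 1 rose, EXD2 (1.27-fold). TDP2, which removes topoisomerase II from the ends of trapped breaks, fell 1.52-fold to 26.8 ± 1.07 CPM, and TOP1 fell 1.36-fold.

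All 59 cell division genes fell, 58 of them by more than 2-fold, with a median log2 change of -3.0. The exception to the 2-fold test was BUB3, a spindle checkpoint protein, at 180 ± 20.6 and 87.7 ± 2.87 CPM. CDC20, which switches on the anaphase-promoting complex, stood at 238, 231, 238, 232 and 210 CPM at week 0 and at 11.5 to 17.9 CPM (median 14.2) at week 4, 15.9-fold lower with no overlap (adjusted p = 6.3e-20). HMMR, a spindle-associated protein, fell from 91.3 ± 24.9 to 6.89 ± 0.871 CPM. CENPA, the centromeric histone, fell from 19.1 ± 2.81 to 1.47 ± 0.338 CPM, and CCNB2, a mitotic cyclin, from 121 ± 26.7 to 9.41 ± 1.49 CPM. None of these fell to 0 at this depth.

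Promoters of many mitotic genes are known to carry the cell cycle genes homology region, called CHR, together with CCAAT boxes, and to be repressed through the CHR by the DREAM complex, which holds an RB relative, E2F4 and the LIN proteins. RefSeq promoter windows (GRCh38.p14) of the 150 bases before the annotated start were found for 51 of the 59 genes. A CHR match (TTTGAA or TTCGAA, either strand) was present in 22 of the 51 windows (43.1%), against 7.98% of all 27305 windows, and a CCAAT match, either strand, in 37 (72.5%), against 24.4%. In windows of 250 bases the CHR shares were 52.9% and 14.6%, and the CCAAT shares 78.4% and 33.0%. A match is only a match of letters. The windows of the 4 cell division genes with the largest falls that held a CHR match are printed to show where it lies, 5′ to 3′ on the gene's strand, with the CHR in capitals, and the 2 adjoining matches of HMMR run together. They are CDC20 at chr1:43358831-43358980, HMMR at chr5:163460482-163460631, CENPA at chr2:26785906-26786055 and CCNB2 at chr15:59104996-59105145, all on the plus strand. The first match begins 65, 28, 18 and 29 bases before the start, in that order.
CDC20: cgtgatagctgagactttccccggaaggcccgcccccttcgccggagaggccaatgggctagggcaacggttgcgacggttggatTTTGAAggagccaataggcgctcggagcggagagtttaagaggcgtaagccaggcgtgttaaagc
HMMR: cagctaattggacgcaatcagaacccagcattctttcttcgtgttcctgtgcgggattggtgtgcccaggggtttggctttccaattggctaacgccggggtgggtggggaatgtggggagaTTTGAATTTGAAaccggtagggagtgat
CENPA: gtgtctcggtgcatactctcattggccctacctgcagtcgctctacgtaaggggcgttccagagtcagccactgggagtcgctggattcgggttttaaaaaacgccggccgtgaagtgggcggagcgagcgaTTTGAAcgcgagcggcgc
CCNB2: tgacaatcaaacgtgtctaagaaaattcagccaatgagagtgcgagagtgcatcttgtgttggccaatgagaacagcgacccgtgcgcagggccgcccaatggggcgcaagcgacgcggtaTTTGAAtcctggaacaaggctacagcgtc
Windows of CDC20, HMMR, CENPA and CCNB2 also held 2, 3, 1 and 3 CCAAT matches.

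Genes of the DREAM complex and of its activating counterpart did not move as a block. RBL2 (p130), the RB relative of resting cells, rose 1.19-fold to 54.8 ± 1.82 CPM, whereas RBL1 (p107) fell 3.51-fold. RB1 itself fell 1.21-fold with overlapping libraries (65.4 ± 10.5 and 54.1 ± 3.74 CPM, adjusted p = 0.0051). E2F4 and LIN54 fell 1.46-fold and 1.39-fold, LIN9 fell 3.49-fold, and LIN37 was not called at about 3 CPM in both groups (adjusted p = 0.97). MYBL2 and FOXM1, which drive mitotic genes in cycling cells, fell 6.40-fold and 10.1-fold. E2F2 fell 11.4-fold and E2F1 4.76-fold, while E2F7, a repressor, was not called (35.3 ± 5.45 and 36.7 ± 2.64 CPM, adjusted p = 0.56).

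Several drivers of G1 rose while the cell division genes were low. Of 35 tested genes of this group 22 fell and 9 rose. CCND2 (cyclin D2) went from 3.86, 4.38, 3.64, 4.54 and 5.54 CPM in week 0 replicates 1, 3, 4, 5 and 6 to between 106 and 121 CPM (median 114) at week 4, 25.8-fold higher (adjusted p = 1.7e-20). The lowest week 4 library was thus far above the highest week 0 library. CCND1 (cyclin D1) rose 2.49-fold to 1636 ± 84.1 CPM, and CDK6, a partner kinase, rose 1.98-fold, whereas CDK4 fell 1.36-fold. MYC rose 1.86-fold to 82.9 ± 4.78 CPM. The MYC antagonists MXI1, MXD1 and MXD4 rose 5.74-fold, 2.59-fold and 2.35-fold. CDK2, the kinase of S phase entry, and CCNE2, its cyclin, fell 2.81-fold and 5.93-fold. The kinase inhibitors CDKN1A, CDKN2A and CDKN2B were higher in every week 4 library than in any at week 0: CDKN2B, which blocks the cyclin D kinases, ranged from 4.49 to 5.91 CPM at week 0 and from 28.1 to 34.4 CPM at week 4.

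Targets of p53 rose as a group, 36 of 47 higher and 5 lower, with a median log2 change of 0.95 and 18 past the 2-fold test. PTCHD4 went from 0.304, 0.415, 0.301, 0.566 and 0.592 CPM at week 0 to between 25 and 29.1 CPM (median 26.7), a 61.2-fold rise with no overlap. SPATA18, a regulator of mitochondrial quality, and the tetraspanin TSPAN11 rose 5.26-fold and 4.89-fold. ZMAT3, an RNA-binding tumour suppressor, rose 3.24-fold to 131 ± 7.04 CPM. TP53INP1 and SESN2, stress proteins, rose 3.51-fold and 2.87-fold. MDM2, which targets p53 for destruction, rose 1.84-fold. Among death genes of the pathway the pattern was uneven. BBC3 (PUMA) rose 4.66-fold and the death receptor TNFRSF10B 2.58-fold, with its decoys TNFRSF10C and TNFRSF10D 8.11-fold and 2.18-fold higher, while BAX and FAS were not called (adjusted p = 0.065 and 0.22) and the nuclease AEN fell 1.25-fold. Both calls depended on the libraries, since without week 0 replicates 1 and 4 BAX was called lower (log2 -0.13) and FAS higher (log2 0.36), and FAS was called lower with the length correction (log2 -0.26).

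**Figure D3:**
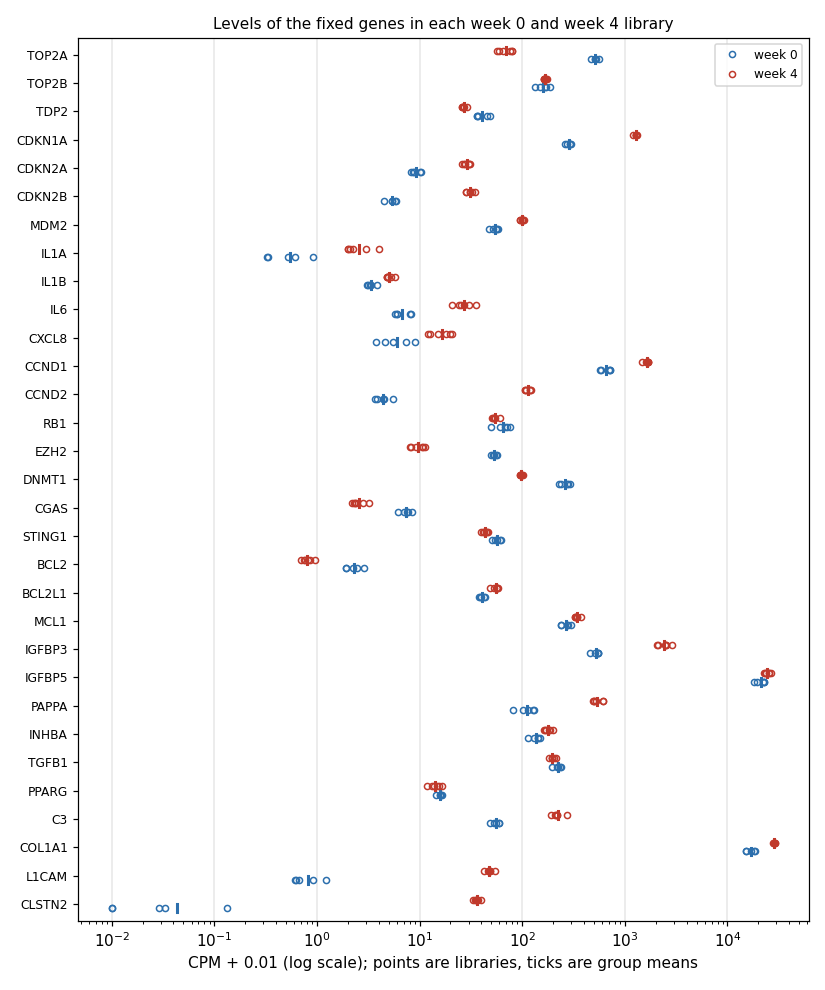
CPM + 0.01 (log scale) of genes of the fixed set in each week 0 (blue, n = 5) and week 4 (red, n = 6) library, with ticks at the group means. TOP2A and EZH2 sit lower and CCND2, PAPPA and L1CAM higher at week 4 without overlap, while TOP2B and PPARG overlap.

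Genes that sense and signal DNA breaks were mostly lower, 32 of 40, and 4 were higher. ATM, the kinase that responds to double-strand breaks, was among the latter, at 26.7, 32, 31.3, 32.6 and 32.8 CPM at week 0 and 51.5 to 64.3 CPM (median 61.2) at week 4. That is a 1.93-fold rise without overlap (adjusted p = 3.3e-10). TP53BP1, which protects broken ends from resection, rose 1.23-fold. Among the larger falls of the list, CLSPN, which carries the ATR signal, fell 6.13-fold, POLQ, the polymerase of microhomology-mediated joining, 5.77-fold, H2AX 5.31-fold and CHEK1 4.06-fold. PRKDC, the catalytic subunit of the end-joining kinase, was not called (319 ± 49.6 and 348 ± 17.4 CPM, adjusted p = 0.24), but was called lower with a correction for gene length (log2 -0.23). H2AX has near-identical histone relatives, so its counts are uncertain. In cohesin and condensin, 21 of 26 genes fell and 2 rose (median -0.97), where the number of rises was 1 to 4 under the alternatives run. The condensin subunit NCAPH fell 8.41-fold and the centromere guardian SGO1 10.8-fold, the cohesin subunit RAD21 fell 2.16-fold, and the loader NIPBL and the subunit STAG2 were not called (adjusted p = 0.12 and 0.093). With upper-quartile scaling both were called higher (log2 0.23 and 0.19), and with the length correction STAG2 was called lower (log2 -0.13).

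Chromatin regulators split within families. EZH2, the methyltransferase of polycomb repressive complex 2 in dividing cells, fell from 53.4 ± 2.82 to 9.69 ± 1.39 CPM (5.50-fold), while its relative EZH1 rose from 18.1 ± 2.08 to 33.9 ± 2.08 CPM (1.87-fold). At week 0 EZH2 was above EZH1 per kilobase of the deposited length (4.95 and 2.59 CPM), and at week 4 below it (0.900 and 4.85 CPM). DNMT1, the maintenance DNA methyltransferase, and its partner UHRF1 fell 2.67-fold and 5.88-fold, whereas the demethylating enzyme TET3 rose 1.77-fold. KDM6B, which removes the polycomb mark, rose 1.90-fold. The heterochromatin methyltransferase SUV39H1 and the remodeller HELLS fell 3.84-fold and 4.15-fold, and ATRX rose 1.73-fold. In all, 27 of 45 tested genes of the list fell and 12 rose, and without week 0 replicates 1 and 4 29 fell and 8 rose.

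Inflammatory genes were raised selectively. Of 20 tested chemokines and receptors, 12 rose and 1 fell (median 1.52). Of the 12, 10 had a mean under 1 CPM at week 0. A member so scarce could enter the test through its week 4 libraries alone, which favours rises, so the count and the median of this list are not comparable with those of abundant genes. Among the scarce members, CXCL10 went from 0.0868 ± 0.0677 to 2.42 ± 0.585 CPM, CCL28 from 0.165 ± 0.0655 to 4.24 ± 0.930 CPM, CX3CL1 from 0.330 ± 0.139 to 3.13 ± 0.578 CPM and CXCL14 from 0.0650 ± 0.0235 to 1.15 ± 0.349 CPM. Under a filter that asks for 5 CPM in 5 libraries, 2 chemokine genes were called higher, because most of the list was no longer tested. CXCR4, the receptor of CXCL12, and CCL20 had no count in any week 0 library and stood at 0.288 ± 0.0889 and 0.108 ± 0.0363 CPM at week 4. CXCL1, by contrast, was not called (1.59 ± 0.482 and 2.05 ± 0.491 CPM, adjusted p = 0.17), although it was called higher with a correction for gene length (log2 0.53) and without week 0 replicate 4 (log2 0.55).

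In the interleukin 1 family, 7 of 19 tested genes rose and 7 fell, and 3 were called higher when 5 CPM in 5 libraries was required. The cell-bound ligand IL1A, which acts upstream in the secretory programme of senescent cells, was at 0.598, 0.511, 0.902, 0.316 and 0.326 CPM at week 0 and 1.99 to 4.03 CPM (median 2.16) at week 4, 4.86-fold higher (adjusted p = 2.9e-08). The alarmin IL33 rose 4.97-fold to 1.74 ± 0.629 CPM. IL1B rose 1.51-fold. IL18 fell 3.35-fold and its activating protease CASP1 1.76-fold, and the receptor IL1R1 was not called (adjusted p = 0.86). In the interleukin 6 family 12 of 24 genes rose and 8 fell, and without week 0 replicates 1 and 4 10 rose and 10 fell. The shared receptor subunit IL6ST, the oncostatin receptor OSMR and the transducer STAT3 rose 1.72-fold, 1.65-fold and 1.68-fold. SOCS3, a feedback inhibitor of that pathway, fell 2.02-fold, and IL11 fell from 140 ± 3.68 to 23.9 ± 5.72 CPM.

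Of 38 tested NF-kB targets and regulators, 23 rose and 7 fell (median 0.55). PTX3, a soluble pattern-recognition protein, was at 19.5, 19.3, 21.4, 19.7 and 19.7 CPM at week 0 and at 166 to 191 CPM (median 184) at week 4, 9.08-fold higher. The adhesion molecule VCAM1 ranged from 40.8 to 54.2 CPM at week 0 and from 201 to 277 CPM at week 4. The feedback inhibitors TNFAIP3, TNIP1 and NFKBIE rose 4.77-fold, 2.55-fold and 2.29-fold, and BIRC3, an inhibitor of apoptosis, 4.22-fold. Among the subunits, RELB and NFKB2, of the noncanonical branch, rose 2.71-fold and 2.10-fold, while NFKB1 was not called (42.3 ± 3.97 and 42.1 ± 2.39 CPM, adjusted p = 0.96), but was called lower with a correction for gene length (log2 -0.25). TNFAIP6 fell 3.15-fold. RefSeq windows were found for 35 of the 40 listed genes, and 16 of them (45.7%) held a match to the NF-kB consensus, against 7.45% of all windows (48.6% and 11.9% in windows of 250 bases). The AP-1 consensus was in 2 (5.71%, against 2.83%). The list was made of known NF-kB targets, so the share describes the list and not these cells. The windows of the 4 genes with the largest rises that held a match follow, 5′ to 3′ on the plus strand, with the consensus in capitals, for PTX3 at chr3:157436700-157436849, VCAM1 at chr1:100719592-100719741, TNFAIP3 at chr6:137867109-137867258 and BIRC3 at chr11:102317334-102317483.
PTX3: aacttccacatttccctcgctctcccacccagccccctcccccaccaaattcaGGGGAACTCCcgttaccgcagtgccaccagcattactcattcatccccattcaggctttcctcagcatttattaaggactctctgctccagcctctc
VCAM1: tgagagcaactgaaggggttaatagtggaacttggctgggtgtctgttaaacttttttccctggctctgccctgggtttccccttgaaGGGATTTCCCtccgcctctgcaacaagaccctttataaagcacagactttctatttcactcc
TNFAIP3: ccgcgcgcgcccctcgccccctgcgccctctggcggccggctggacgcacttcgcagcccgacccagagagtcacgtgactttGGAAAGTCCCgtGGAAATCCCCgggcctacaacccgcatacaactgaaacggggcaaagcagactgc
BIRC3: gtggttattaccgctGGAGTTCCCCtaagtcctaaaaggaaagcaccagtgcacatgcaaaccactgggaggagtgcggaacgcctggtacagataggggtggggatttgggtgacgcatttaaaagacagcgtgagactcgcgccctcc
TNFAIP3 held 2 matches and the others 1 each.

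AP-1 and related factors gave 14 higher and 5 lower of 25. The growth-response factor EGR2 rose from 0.814 ± 0.235 to 11.6 ± 1.46 CPM and JUN rose 2.29-fold, while FOSL1, which partners with JUN, fell 2.12-fold from 293 ± 24.4 CPM.

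Interferon-stimulated genes rose in 24 of 43 cases and fell in 8 (median 0.48). Of the 24, 8 had a mean under 1 CPM at week 0, and such members could enter the test through week 4 alone. With 5 CPM in 5 libraries required, 15 were called higher and the median was 0.32. IFIT2, SAMD9L and TRIM22 rose 3.73-fold, 2.75-fold and 2.49-fold, to 5.66 ± 0.639, 24.0 ± 1.44 and 57.4 ± 1.96 CPM. OAS1 went from 0.00839 ± 0.0188 to 0.261 ± 0.175 CPM, with counts in 1 week 0 library only, replicate 1, and its relative OAS3 fell from 18.4, 22.5, 19.2, 24.1 and 24.0 CPM to between 8.71 and 14.8 CPM (median 10.0), a 2.08-fold fall without overlap. ISG15 fell 1.43-fold, and IFIT1 was not called (adjusted p = 0.10), though it was called lower without week 0 replicate 5 (log2 -0.53). Among sensors of nucleic acid, 7 of 21 rose and 8 fell, and 3 were called higher when 5 CPM in 5 libraries was required. CGAS, the cytosolic DNA sensor, was at 7.60, 7.66, 8.52, 6.13 and 6.97 CPM at week 0 and 2.21 to 3.21 CPM (median 2.35) at week 4, 2.90-fold lower (adjusted p = 1.7e-11). Its partner STING1 fell 1.32-fold and BANF1, which shields DNA from CGAS, fell 2.33-fold, while IFI16 rose 1.41-fold.

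Class I antigen presentation could be read only in part. HLA-B went from 27.0, 28.7, 26.7, 29.2 and 27.6 CPM to between 80.7 and 107 CPM (median 101), a 3.55-fold rise with no overlap. HLA-F, TAP1, PSMB8 and PSMB9 were listed at 0 in all libraries, and HLA-C and HLA-E were too low to test. Of 144 protein-coding genes in the stretch from GABBR1 to KIFC1, which holds the major histocompatibility complex, 73.6% were listed at 0 in all 17 libraries, against 7.40% of 19088 other protein-coding genes. Counts of HLA-B may share reads with the other class I genes, and zeros in that stretch are not read as lack of expression. B2M, the class I light chain, lies elsewhere and was not called (67.8 ± 25.2 and 62.2 ± 2.82 CPM, adjusted p = 0.46), but without week 0 replicates 1 and 4 it was called higher (log2 0.30), and the transactivator NLRC5 fell 1.39-fold.

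Ligands for immune cells gave 10 higher and 5 lower of 21. Of the 10, 4 had a mean under 1 CPM at week 0, and with 5 CPM in 5 libraries required 6 were called higher and 3 lower. TNFSF4 (OX40 ligand) went from 17.2 ± 2.77 to 61.0 ± 5.18 CPM, and CD200 rose 3.25-fold. The checkpoint ligands moved in opposite directions: CD274 (PD-L1) fell 1.60-fold and PDCD1LG2 (PD-L2) rose 1.46-fold. CD47, the signal that restrains macrophages, rose 1.28-fold. In the complement system 11 of 18 rose and 3 fell (median 0.94). SERPING1, the C1 inhibitor, was at 34.0, 38.8, 33.9, 41.7 and 39.8 CPM at week 0 and 250 to 281 CPM (median 269) at week 4, a 7.12-fold rise. C3, the central component, rose 4.01-fold, C7 7.35-fold, the proteases MASP1 and C1R 3.60-fold and 2.54-fold, and the fluid-phase inhibitor CLU 2.57-fold. CD55, which protects the cell surface, fell 1.61-fold. C2, C4A, C4B and CFB lie in the stretch listed at 0.

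In the insulin-like growth factor axis 17 of 22 genes rose (77.3%) and 1 fell, and without week 0 replicates 1 and 4 17 rose and 3 fell. Its binding proteins hold the ligands in the medium, and pappalysin cleaves some of them to free the ligand. IGFBP3 went from 460, 545, 514, 549 and 554 CPM to between 2069 and 2896 CPM (median 2472), 4.61-fold higher. IGFBP2 and IGFBP4 rose 5.19-fold and 2.92-fold. IGFBP5, already the most abundant gene at week 0 (20992 ± 2154 CPM), rose 1.17-fold with overlapping libraries. The protease PAPPA, which cleaves IGFBP4, was at 81.9, 130, 103, 127 and 114 CPM and then at 491 to 616 CPM (median 513), and its inhibitor STC2 rose 2.38-fold. The ligand IGF2 was not called (18.9 ± 1.44 and 19.6 ± 1.64 CPM, adjusted p = 0.50), IGF1 rose 3.08-fold to 0.896 ± 0.304 CPM, and the adaptor IRS2 rose 2.52-fold.

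Transcripts of the inhibitors of DNA binding, which are direct BMP targets, all fell: ID3 from 317, 302, 321, 307 and 281 CPM to between 80.3 and 106 CPM (median 82.4), ID1 2.70-fold, ID2 1.68-fold and ID4 5.50-fold. The feedback inhibitor SMAD6 fell 2.17-fold. The secreted antagonists GREM1 and FST fell 1.87-fold and 3.28-fold, whereas the antagonist CHRDL1 rose 4.51-fold to 2.43 ± 0.402 CPM, and the ligand GDF6 rose from 0.625 ± 0.246 to 5.86 ± 0.869 CPM. On the TGF-beta side the ligand TGFB1 fell 1.13-fold with overlap (adjusted p = 0.0053, and 0.085 with upper-quartile scaling or 0.11 with the length correction), TGFB2 was not called (adjusted p = 0.51), the receptor TGFBR2 rose 2.67-fold, and the proteins that store latent ligand, LTBP3 and LRRC32, rose 2.75-fold and 4.16-fold. Of the 50 tested genes 25 rose and 18 fell, and without week 0 replicates 1 and 4 21 rose and 19 fell. Among Wnt genes 13 of 29 rose and 9 fell. Of the 13, 5 had a mean under 1 CPM at week 0, and with 5 CPM in 5 libraries required 8 were called higher and 5 lower. The antagonist SFRP1 rose from 363 ± 36.5 to 1434 ± 89.3 CPM and DKK1, another antagonist, fell from 168 ± 25.4 to 40.6 ± 4.26 CPM. The target AXIN2 was not called (adjusted p = 0.66). Of 39 genes of the YAP and TAZ list 16 rose and 12 fell (median 0.08).

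Collagen chains rose in 24 of 36 cases and fell in 4 (median 0.78), and without week 0 replicates 1 and 4 25 rose and 7 fell (median 0.66). Of the 24, 8 had a mean under 1 CPM at week 0. COL1A2 was at 7669, 9533, 8191, 9567 and 9337 CPM at week 0 and at 20254 to 21314 CPM (median 20964) at week 4, 2.36-fold higher. Its partner chain COL1A1 rose less, 1.69-fold. COL6A1, COL6A2 and COL6A3, the chains of the pericellular collagen VI, rose 2.0-fold, 1.99-fold and 1.69-fold. COL11A1, a cartilage and fibrosis-associated chain, rose 13.4-fold to 99.2 ± 8.20 CPM. The basement membrane chains COL4A1 and COL4A2 were not called (adjusted p = 0.87 and 0.96), nor was COL5A2 (adjusted p = 0.85), although its partner COL5A1 rose 2.71-fold. All 3 were called lower without week 0 replicates 1 and 4, by small amounts (log2 -0.12 for COL4A1, -0.094 for COL4A2 and -0.12 for COL5A2), and COL4A1 and COL4A2 also with the length correction. COL15A1 fell 1.35-fold with overlap. Of 33 genes that modify or cross-link collagen, 23 rose and 3 fell. PLOD2, the lysyl hydroxylase of cross-link sites, rose 4.56-fold, the lysyl oxidase LOXL4 10.3-fold, the transglutaminase TGM2 4.29-fold and the prolyl hydroxylases P4HA1 and P4HA2 2.35-fold and 2.91-fold. The collagen chaperone SERPINH1 was not called (1108 ± 78.6 and 1107 ± 34.2 CPM, adjusted p = 0.97).

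Receptors and proteases for this matrix shifted too. Integrins rose in 14 of 20 cases and fell in 3. The laminin-binding subunit ITGA7 rose 8.52-fold to 55.8 ± 7.12 CPM, ITGB8, which activates latent TGF-beta, rose 7.68-fold, and the common subunit ITGB1 1.47-fold. In the plasminogen system 10 of 18 genes rose and 5 fell. The secreted protease inhibitor SERPINE2 rose 4.37-fold, from 166 ± 12.2 to 724 ± 67.1 CPM. The urokinase gene PLAU fell 2.02-fold and its receptor PLAUR 1.21-fold, while tissue activator PLAT rose 1.57-fold. LRP1, the receptor that clears activator and inhibitor complexes, rose from 653 ± 108 to 2539 ± 71.1 CPM.

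Neuronal adhesion and synaptic membrane genes rose in 37 of 52 cases and fell in 4 (71.2% and 7.69%, median 1.15), and 23 passed the 2-fold test upward. The members of this list, too, were chosen with earlier results of these data known. Of the 37, 15 had a mean under 1 CPM at week 0, and such members could enter the test through week 4 alone. CLSTN2 had counts in 3 of 5 week 0 libraries, with 0, 0, 0.0231, 0.0192 and 0.122 CPM in replicates 1, 3, 4, 5 and 6, and 32.9 to 39.6 CPM (median 35.8) at week 4. Its log2 change of 10.01 ± 0.24 SE rests on 16 counts at week 0 and was 11.56 without week 0 replicate 6. The calsyntenins CLSTN1 and CLSTN3, which were well expressed at week 0, rose 1.33-fold and 1.52-fold. L1CAM was at 0.912, 1.22, 0.601, 0.661 and 0.612 CPM and then at 42.8 to 53.9 CPM (median 47.9), 59.7-fold higher. Its relatives NFASC and NRCAM rose 29.9-fold and 6.46-fold. NRXN3, a presynaptic neurexin, rose 5.05-fold to 39.7 ± 2.92 CPM, the axon guidance ligands SLIT2 and SLIT3 rose 2.96-fold and 5.34-fold with their receptor ROBO2 at 2.80-fold, and the vesicle calcium sensor SYT1 rose 4.32-fold.

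The 4 falls of the list were NPTX1, LRRC4, NEFM and SYT11. NPTX1, a secreted neuronal pentraxin, fell from 242, 283, 244, 289 and 289 CPM to between 36.8 and 53.6 CPM (median 40.8), 6.13-fold lower. LRRC4 and the neurofilament NEFM fell 4.50-fold and 2.28-fold. A separate list of 10 neural and glial markers summed to 9.18 ± 1.28 CPM at week 0 and 8.78 ± 0.541 CPM at week 4 (exact two-sided permutation test, adjusted p = 0.53), with ELAVL3, ELAVL4 and S100B under 0.1 CPM in every library. With a correction for gene length 8 of the 52 fell, against 4 without it. Cadherins and protocadherins gave 22 higher and 3 lower of 32 (median 0.89), and without week 0 replicates 1 and 4 21 higher and 6 lower. Of the 22, 10 had a mean under 1 CPM at week 0, and the median was 0.44 when 5 CPM in 5 libraries was required. CDH10 went from 0.0210 ± 0.00144 CPM (10 counts over the group) to 2.43 ± 0.492 CPM, FAT4 rose 2.23-fold to 129 ± 9.23 CPM, and CDH2 (N-cadherin), the main fibroblast cadherin, was not called (176 ± 19.5 and 171 ± 7.18 CPM, adjusted p = 0.59), but was called lower without week 0 replicates 1 and 4 (log2 -0.14). Of 50 calcium release and potassium channel genes 30 rose and 11 fell, including the calcium pump ATP2B4 at 2.53-fold and the calcium release channel ITPR2 at 2.81-fold higher.

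**Figure D4:**
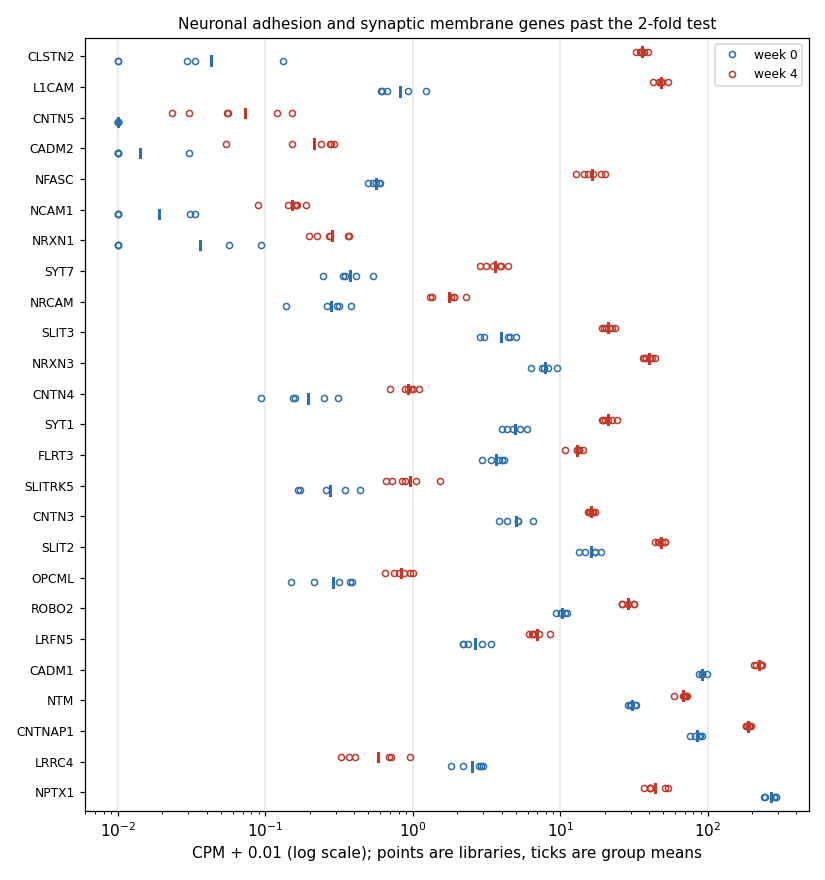
CPM + 0.01 (log scale) in each week 0 (blue, n = 5) and week 4 (red, n = 6) library of the neuronal adhesion and synaptic membrane genes past the 2-fold test, with ticks at the group means. CLSTN2, L1CAM and NFASC lie furthest to the right of their week 0 values, and NPTX1 and LRRC4 are the 2 that fell.

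Glycolysis genes rose in 29 of 38 cases and fell in 4 (76.3% higher, median 0.66). PFKFB4, which sets the level of the activator of phosphofructokinase, went from 9.76, 12.1, 10.1, 12 and 12.6 CPM to between 78.3 and 89.7 CPM (median 85.4), a 7.53-fold rise. ALDOC and ENO2, isoforms best known from brain, rose 5.71-fold and 3.98-fold. GAPDH, often taken as a reference gene, rose 1.89-fold to 6272 ± 225 CPM, and ACTB, another, fell 1.43-fold. The glucose transporters SLC2A3 and SLC2A1 rose 2.84-fold and 2.16-fold. PDK1 and PDK3, kinases that shut off pyruvate dehydrogenase, rose 2.91-fold and 4.75-fold, while PDHA1 (called lower without week 0 replicates 1 and 4, log2 -0.14) and PKM were not called (adjusted p = 0.13 and 0.84) and DLAT fell 1.60-fold. TXNIP, a restraint on glucose uptake, also rose, 4.04-fold.

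CA9 and EGLN3, known as targets of hypoxia-inducible factors, were among the 15 largest rises. CA9, a carbonic anhydrase of the cell surface, was at 1.38, 1.27, 1.06, 1.04 and 1.10 CPM and then at 34.9 to 43.0 CPM (median 38.5), 33.1-fold higher. EGLN3, an oxygen-sensing prolyl hydroxylase, rose from 0.151 ± 0.0931 to 5.58 ± 1.13 CPM. In the autophagy list, where 27 of 48 rose and 12 fell, the mitophagy receptors BNIP3 and BNIP3L rose 3.59-fold and 2.96-fold and OPTN 2.70-fold, while FUNDC1 and the conjugation factor ATG5 fell 1.78-fold and 1.59-fold. In the clock list (12 of 22 higher, 5 lower) the repressors BHLHE40 and BHLHE41 rose 2.94-fold and 10.7-fold and the activator RORA 5.82-fold, while the core pair CLOCK and BMAL1 was not called (adjusted p = 0.14 and 0.65), though CLOCK was called higher with upper-quartile scaling (log2 0.22). No list of hypoxia targets was examined.

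**Figure D5:**
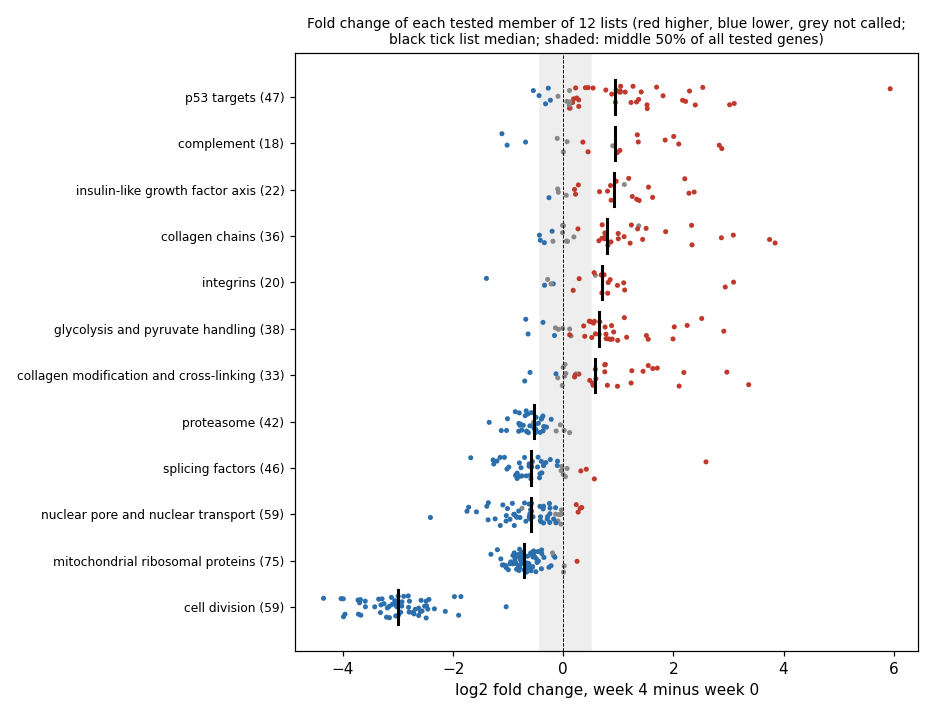
Log2 fold change of each tested member of 12 gene lists (points, red called higher, blue called lower, grey not called), with a black tick at each list median and the middle 50% of all tested genes shaded (-0.43 to 0.50). Cell division genes sit furthest to the left, and mitochondrial ribosomal protein and proteasome genes form narrow groups to the left of 0.

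Most genes for mitochondrial translation and for the proteasome were lower. Mitochondrial ribosomal proteins fell in 71 of 75 cases and 1, MRPL17, rose (median -0.71). Proteasome genes fell in 37 of 42 cases and none rose (median -0.54), although 1 rose under some alternatives, upper-quartile scaling among them. These changes moved with the week 0 libraries that stood apart. PSMA5, a subunit of the catalytic core, was at 218, 112, 166, 95.4 and 81.7 CPM in week 0 replicates 1, 3, 4, 5 and 6 and at 61.1 to 72.2 CPM (median 65.6) at week 4. Replicates 1 and 4 were thus the highest, yet the lowest week 0 library was still above all week 4 libraries. The log2 change of PSMA5 was -1.03, and -0.55 without replicates 1 and 4 (adjusted p = 1.8e-07). MRPL13 showed the same order, with 85.7, 47.0, 72.5, 41.7 and 37.9 CPM against 20.5 to 24.3 CPM, and its log2 change went from -1.31 to -0.88. Without those libraries 68 of the mitochondrial ribosomal protein genes fell and 1 rose (median -0.48), and 38 proteasome genes fell and none rose (median -0.41). PSMD2, a base subunit of the regulatory particle, was not called (561 ± 38.4 and 567 ± 24.6 CPM, adjusted p = 0.79).

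Splicing factors fell in 37 of 46 cases and rose in 4 (median -0.58, and -0.61 without week 0 replicates 1 and 4). SRSF7 and SRSF3, which control splice site choice, fell 3.20-fold and 2.42-fold, and HNRNPC and HNRNPA2B1 fell 2.40-fold and 2.22-fold. CELF2, a splicing regulator of muscle, brain and lymphocytes, moved the other way, from 7.79, 9.11, 8.54, 9.52 and 11 CPM to between 47.8 and 60.8 CPM (median 55.5), 6.02-fold higher. Nuclear pore and transport genes fell in 48 of 59 cases and rose in 4 (median -0.59 with and without those libraries), and with a correction for gene length 2 rose. KPNA2, an importin that rises with proliferation, fell from 515 ± 19.5 to 96.8 ± 4.36 CPM, the pore subunits NUP35 and NUP107 fell 3.36-fold and 2.57-fold, and the export factor CSE1L 2.21-fold. RANBP2 rose 1.24-fold with overlap, a rise lost with a correction for gene length (log2 -0.03, adjusted p = 0.58).

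Of 40 antioxidant genes 21 fell and 10 rose, and without week 0 replicates 1 and 4 20 fell and 15 rose. NQO1, a standard NRF2 target, was at 265, 258, 277, 245 and 238 CPM and then at 61.8 to 66.7 CPM (median 64.3), 4.01-fold lower. TXNRD1 and SLC7A11 fell 1.65-fold and 1.70-fold, while HMOX1 rose 1.83-fold and the extracellular dismutase SOD3 5.77-fold, and GCLM was not called (adjusted p = 0.15), though it was called higher without week 0 replicate 6 (log2 0.17). Iron and metal genes rose in 16 of 23 cases and fell in 3 (15 and 2 without week 0 replicates 1 and 4). Of the 16, 4 had a mean under 1 CPM at week 0, and with 5 CPM in 5 libraries required 10 were called higher. Both ferritin chains, FTH1 and FTL, were higher (2.17-fold and 2.01-fold), as was the transferrin receptor TFRC (1.68-fold), and MT2A rose 1.66-fold. Ferritin and metallothionein genes have near-identical copies, so their counts are uncertain. Prostacyclin synthase PTGIS rose 3.62-fold and PTGS1 1.49-fold, while PTGS2, the inducible cyclooxygenase, was not called (5.34 ± 0.452 and 4.85 ± 2.06 CPM, adjusted p = 0.52), but was called lower without week 4 replicate 6 (log2 -0.40).

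Of 37 BCL2 family and death receptor genes 16 rose and 11 fell. MCL1 and BCL2L1 (BCL-XL) rose 1.28-fold and 1.37-fold to 342 ± 19.8 and 55.1 ± 3.42 CPM, and BCL2, scarce throughout, fell 2.85-fold to 0.798 ± 0.0937 CPM. The decoy receptor TNFRSF11B (osteoprotegerin) fell 3.44-fold. In the list of vacuolar ATPase and cathepsin genes 17 of 34 rose and 8 fell. Among the lysosomal proteases CTSB, CTSD and CTSF rose 1.73-fold, 1.93-fold and 2.69-fold, and CTSL fell 1.31-fold.

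Among 34 keratins, tubulins and other filament genes 16 rose and 10 fell, and prostaglandin genes gave 10 higher and 6 lower of 23. Positional and mesenchymal regulators were lower in 23 of 48 cases and higher in 14. The lung mesenchyme factors TBX2, TCF21 and FOXF1 fell 2.19-fold, 3.13-fold and 1.76-fold, along with FENDRR, the noncoding RNA beside FOXF1, which fell 2.24-fold. GATA2 fell 3.17-fold, whereas GATA6 went from 5.70, 6.71, 6.35, 6.84 and 6.85 CPM to between 21.5 and 24.6 CPM (median 23.7), a 3.62-fold rise. Some genes of other mesenchymal tissues rose. Among 31 bone and cartilage genes 17 were higher and 7 lower (4 lower with upper-quartile scaling). Of the 17, 8 had a mean under 1 CPM at week 0, and such members could enter the test through week 4 alone. With 5 CPM in 5 libraries required, 9 were called higher and 4 lower. The calcification inhibitor MGP went from 1.15 ± 0.336 to 22.7 ± 2.68 CPM, COMP from 0.144 ± 0.0129 to 2.83 ± 0.352 CPM and ALPL rose 4.19-fold. Among the 7 that fell, MATN3 went from 8.48 ± 0.675 to 2.32 ± 0.493 CPM (3.66-fold lower). TNFRSF11B fell 3.44-fold, and RUNX3 fell 1.89-fold with overlapping libraries. SOX9, the cartilage factor, rose 1.93-fold, and RUNX2, the bone factor, was not called (adjusted p = 0.79). Lipid genes gave 18 higher and 8 lower of 38, with DGAT2, APOE and the lipid droplet coat PLIN2 higher (8.58-fold, 4.67-fold and 2.13-fold). LIPE and PPARGC1A were lower (2.20-fold and 2.09-fold), as was CPT1A (1.63-fold, from 150 ± 10.6 to 92.2 ± 2.27 CPM). The fat cell factor PPARG and its target FABP4 were not called (adjusted p = 0.15 and 0.39), although with a correction for gene length PPARG was called lower (log2 -0.34). Among 44 long noncoding and host RNAs 16 rose and 16 fell, and 10 were called higher when 5 CPM in 5 libraries was required. PURPL, a p53-responsive RNA, went from 0.107 ± 0.0849 to 4.17 ± 0.612 CPM, NEAT1 rose 2.14-fold, and the small nucleolar host genes SNHG3 and SNHG1 fell 4.90-fold and 2.77-fold.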

How the data were processed

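RNA of IMR-90 fibroblasts was sequenced in 17 libraries, and 11 libraries (week 0, n = 5; week 4, n = 6) are compared here. RNA was purified on columns with DNase, per the labels' protocols. The deposited values are raw counts per gene; HISAT2 2.0.5.2 and featureCounts 1.4.6 are listed per the submitters' processing notes. Those notes name a mouse build although the symbols are human, so no coordinate was taken from the deposited files. Some deposited files also carry a gene length, used only for levels per kilobase and the length correction. Of the 11 libraries compared, only week 0 replicates 5 and 6 had such a file, so the kind of file is partly confounded with group. The entry without a gene name (0.224 to 0.289% of counts) was left out. Counts were scaled by the trimmed mean of M-values and fitted with edgeR 4.0.16 (quasi-likelihood, all 17 libraries sharing 1 estimate of the spread, contrast week 4 minus week 0), with Benjamini-Hochberg adjustment over 16891 genes and a call at 0.05. Changes over 2-fold were tested with glmTreat. Marker sums were compared by exact two-sided permutation, whose smallest p here is 0.0043, adjusted over 6 lists. On simulated counts with known changes, 79.4% of 2-fold changes were recovered in this comparison (16060 genes, of which 97 changed 2-fold and 93 by log2 0.5). With so few genes changed, the simulation does not test the scaling or the calls where most genes change. Named genes are a fixed set, the 15 largest called rises and falls, the 10 largest gains and losses in CPM, and up to 3 members of each list in each direction, of which part is given and some are not reported here; further genes were added for their known roles after their values were seen. The members and lists were chosen with earlier results of these data known. Promoter sequences come from RefSeq (GRCh38.p14). Total counts per library ranged from 80.34 to 102.8 M. Alternatives were other scalings (upper quartile, RLE), DESeq2 1.42.0, no filter, a stricter filter and the 11 libraries alone. Further ones were a replicate block, a term for files with a gene length (11220 genes called), a length correction, and leaving out libraries.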

Additional observations from a re-analysis of the deposited data

Results flagged for a closer look

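For each gene named in the text, each group was searched for a library whose distance to its nearest neighbour was large against the range of the group (Dixon's test, 95% critical value). Chance flags about 1 in 20 groups. Of 620.0 groups examined (310.0 genes in week 0 and week 4), 46 had such a library, where chance gives about 31, and 18 of the 46 were week 4 replicate 6. Week 0 replicate 1 was the highest library of its group for OAS1 (0.0419 CPM) and SNHG3 (51.5 CPM). Week 0 replicate 1 was the lowest library of its group for ATM (26.7 CPM), MXD1 (7.3 CPM), TNFRSF10D (122 CPM), ATR (29.1 CPM), CD274 (24.2 CPM), ITGB1 (2571 CPM) and SLC7A11 (108 CPM), and also for PDGFRA (284 CPM) and TEK (71.2 CPM). Week 0 replicate 3 was the lowest library of its group for PPARG (14.4 CPM). Week 0 replicate 4 was the highest library of its group for TPM4 (2662 CPM), PTX3 (21.4 CPM), PKM (3599.7 CPM), NUP107 (88.2 CPM) and CTSL (123 CPM). Week 0 replicate 4 was the lowest library of its group for LTBP3 (63.3 CPM). Week 0 replicate 6 was the highest library of its group for CDH1 (0.0204 CPM), CLSTN2 (0.122 CPM), PECAM1 (0.0102 CPM) and GCLM (41.5 CPM). Week 0 replicate 6 was the lowest library of its group for CDC20 (209.8 CPM). Week 4 replicate 1 was the highest library of its group for OAS3 (14.8 CPM). Week 4 replicate 2 was the lowest library of its group for ATM (51.5 CPM). Week 4 replicate 5 was the highest library of its group for CXCL14 (1.83 CPM) and TXNIP (566 CPM). Week 4 replicate 5 was the lowest library of its group for CLSTN3 (30.7 CPM). Week 4 replicate 6 was the highest library of its group for KRT8 (60.1 CPM), RB1 (61.4 CPM), IL11 (35.5 CPM), TNFAIP6 (3.7 CPM), CD55 (25.3 CPM), ID3 (106 CPM) and GREM1 (54.6 CPM). Week 4 replicate 6 was also the highest library of its group for PTGS2 (8.95 CPM) and TCF21 (19.3 CPM). Week 4 replicate 6 was the lowest library of its group for EEF1A1 (7019 CPM), CCND1 (1476 CPM), CDKN1A (1193 CPM), BAX (81.6 CPM), HLA-B (80.7 CPM), PKM (2859 CPM) and OPTN (148 CPM). Week 4 replicate 6 was also the lowest library of its group for CTSB (1469 CPM) and CTSL (79.3 CPM). None of these libraries was left out of the values in the report, and the cause was not tested.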

How the results depend on the processing

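The counts of called genes stayed within 1.5 times the main count under the alternatives run, except the number over 2-fold higher, which was 586 when 5 CPM in 5 libraries was required. Leaving out each library in turn gave 11013 to 11348 called genes, 5513 to 5747 higher, 5500 to 5609 lower, 1202 to 1286 over 2-fold higher and 682 to 728 over 2-fold lower. DESeq2 called 11540 genes, and upper-quartile scaling gave 6373 higher and 5028 lower. Of 9483 values of named genes 9395 were either called in the same direction or called in neither setting. Another 41 lost the call, 37 gained one in the same direction, and 10 changed sign with a call in the main or the alternative setting. Sign changes of genes called in neither setting were not counted. The counted sign changes without week 0 replicates 1 and 4 were EEF1A1 (log2 0.22), B2M (0.303) and COL4A2 (-0.094). With the length correction they were TOP2B (-0.22), MAU2 (-0.0269), RANBP2 (-0.0337), FAS (-0.258), PRKDC (-0.231), STAG2 (-0.132) and COL4A2 (-0.28). The cause was not tested. Of 1890 list counts 50 moved by over 1.5 times, 20 of them under the stricter filter, which tests fewer genes. Of 12 promoter shares 4 moved with 250-base windows. Replicate numbers did not pair the libraries (correlations -0.0084 to 0.0368, own number best for 2 of 5), and with a replicate block 11180 genes were called (5636 higher, 5544 lower). Genes near 0 at week 0 had uncertain folds: CHI3L2 was at log2 8.43 without week 0 replicate 3 and CXCL10 at 5.85 without replicates 1 and 4.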
